A study of Mus musculus with 12 samples.

Results

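Gemin4 and Glod4, Gm49378 and Ipo4, Gm49510 and Pdxp, and Gm28048 and B3gnt2 are 4 pairs of mouse genes whose exons overlap on the same strand, so that a sequencing read from the common exon matches both genes. These 8 genes, of 15767 in the count table, were chosen by name because the counts of one gene of a pair had been seen to be high where those of the other were low. The counts that chose them are the counts described here, so the levels, splits and sums of the members are descriptions and carry no test. The libraries came from wild-type Neuro-2a cells, a line derived from a mouse neuroblastoma. The groups were a miR-155 mimic, a synthetic RNA meant to supply the microRNA, a miR-155 inhibitor, designed to block that microRNA, and a control small RNA named miR-Con, with 4 libraries each. All 3 were transfected without serum or antibiotics, full medium was returned after 4 h and the cells were kept until day 2. The labels do not say what the replicate numbers mark or whether separate cultures were used within a group, so the spread between them may be technical.

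Where genes overlap on the same strand, a counting program can give a read from the common bases to one gene, to the other, to both or to neither, and only reads that reach a private exon or a private splice junction name their gene without doubt. A change in the split between overlapping genes can therefore come from the transcripts made or from the assignment of the reads, while the sum of both genes is less affected, because a read moved from one to the other stays in it. Gemin4 is a subunit of the SMN complex, which assembles the small nuclear ribonucleoproteins of the spliceosome, and Glod4 carries a glyoxalase domain. Ipo4 encodes an importin that carries proteins such as histones into the nucleus, Pdxp encodes the pyridoxal phosphatase, also known as chronophin, which removes phosphate from vitamin B6 and from cofilin, and B3gnt2 encodes an enzyme that extends poly-N-acetyllactosamine chains on glycans. Gm49378, Gm49510 and Gm28048 are predicted genes annotated as protein coding, and no role is given to them here.

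The last exon of Gemin4 is also the last exon of a Glod4 transcript, and the last exon of Gm49510 begins at the same base as the last exon of Pdxp. The splice junctions into these common exons are shown because only the bases before the junction tell the genes apart. They are written 5′ to 3′ in the direction of transcription, in lower case for the last bases of the private exon and in capitals for the first 15 bases of the common exon, from GENCODE release M21 on the build GRCm38. On the minus strand of chromosome 11 the common exon begins at base 76213923 and follows base 76217478, at the end of exon 1, in Gemin4, and base 76233022, at the end of exon 8, in Glod4. On the plus strand of chromosome 15 it begins at base 78918130 and follows base 78910099, at the end of exon 16, in Gm49510, and base 78914531, at the end of exon 1, in Pdxp.
Gemin4: atggacctagGACCCTTGAATATCT
Glod4: attggatgatGACCCTTGAATATCT
Gm49510: acatgacccgtaagaGTACTGGAAGCCTGG
Pdxp: gaagccggacccccgGTACTGGAAGCCTGG
The capitals are the same within each pair, and the private bases differ. The count of reads over each junction was not analysed here.

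The guide strand of the transfected microRNA, miR-155-5p, is shown for its seed, bases 2 to 8, given in capitals, since pairing with the seed is the main way in which a microRNA finds an mRNA. The sequence is from RefSeq on GRCm38.p6.
miR-155-5p: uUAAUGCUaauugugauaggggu
Matches to the seed were searched on the sense strand over whole annotated transcripts, as the 8mer AGCATTAA and as the 7-base forms AGCATTA and GCATTAA, both of which lie within the 8mer. These stood in 2.60%, 7.67% and 6.81% of 85378 annotated transcripts of the measured genes. Among the members, 1 of 4 B3gnt2 transcripts held GCATTAA, and no transcript of the other 7 genes held any of the forms. A match is a string of letters and not a tested site.

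The common exons make up much of each pair. Gemin4, with 2 transcripts and 3734 exon bases when its exons are merged, shares 3353 bases, 89.8% of its length, with Glod4, which has 9 transcripts. Gm28048, with 1 transcript, shares 2449 of its 2746 bases, 89.2%, with B3gnt2, and 294 more with Commd1, a gene of copper handling and endosomal sorting. Gm49378, also with 1 transcript, shares 2583 of its 3275 bases, 78.9%, with Ipo4 and 685 with Tm9sf1, a gene of a multi-pass membrane protein family. Gm49510 shares 903 of its 2762 bases, 32.7%, with Pdxp and 1758 with Sh3bp1, which encodes a GTPase-activating protein. The exons of the 3 predicted genes thus join exons of 2 neighbouring genes. Exon bases that lie in no other measured gene on the same strand number 381 in Gemin4, 101 in Gm49510, 7 in Gm49378 and 3 in Gm28048, against 1098 to 2502 in the 4 partners. On the opposite strand, the exons of Tlcd3a cover 2875 bases of both Gemin4 and Glod4. Tlcd3a measured 73.0 to 85.8 CPM (counts per 1000000 counts of the library) in mimic, 72.8 to 85.2 CPM in inhibitor and 72.6 to 89.9 CPM in control libraries. Whether the counting used strand is not given in the sources used here, so antisense reads cannot be told apart. Vps53 shares 150 same-strand bases with Glod4, Dbil5 shares 57 opposite-strand bases with Gemin4, Mrm3 shares 11 with Glod4, and Zrsr1 lies opposite Gm28048 without sharing exon bases.

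**Figure D1:**
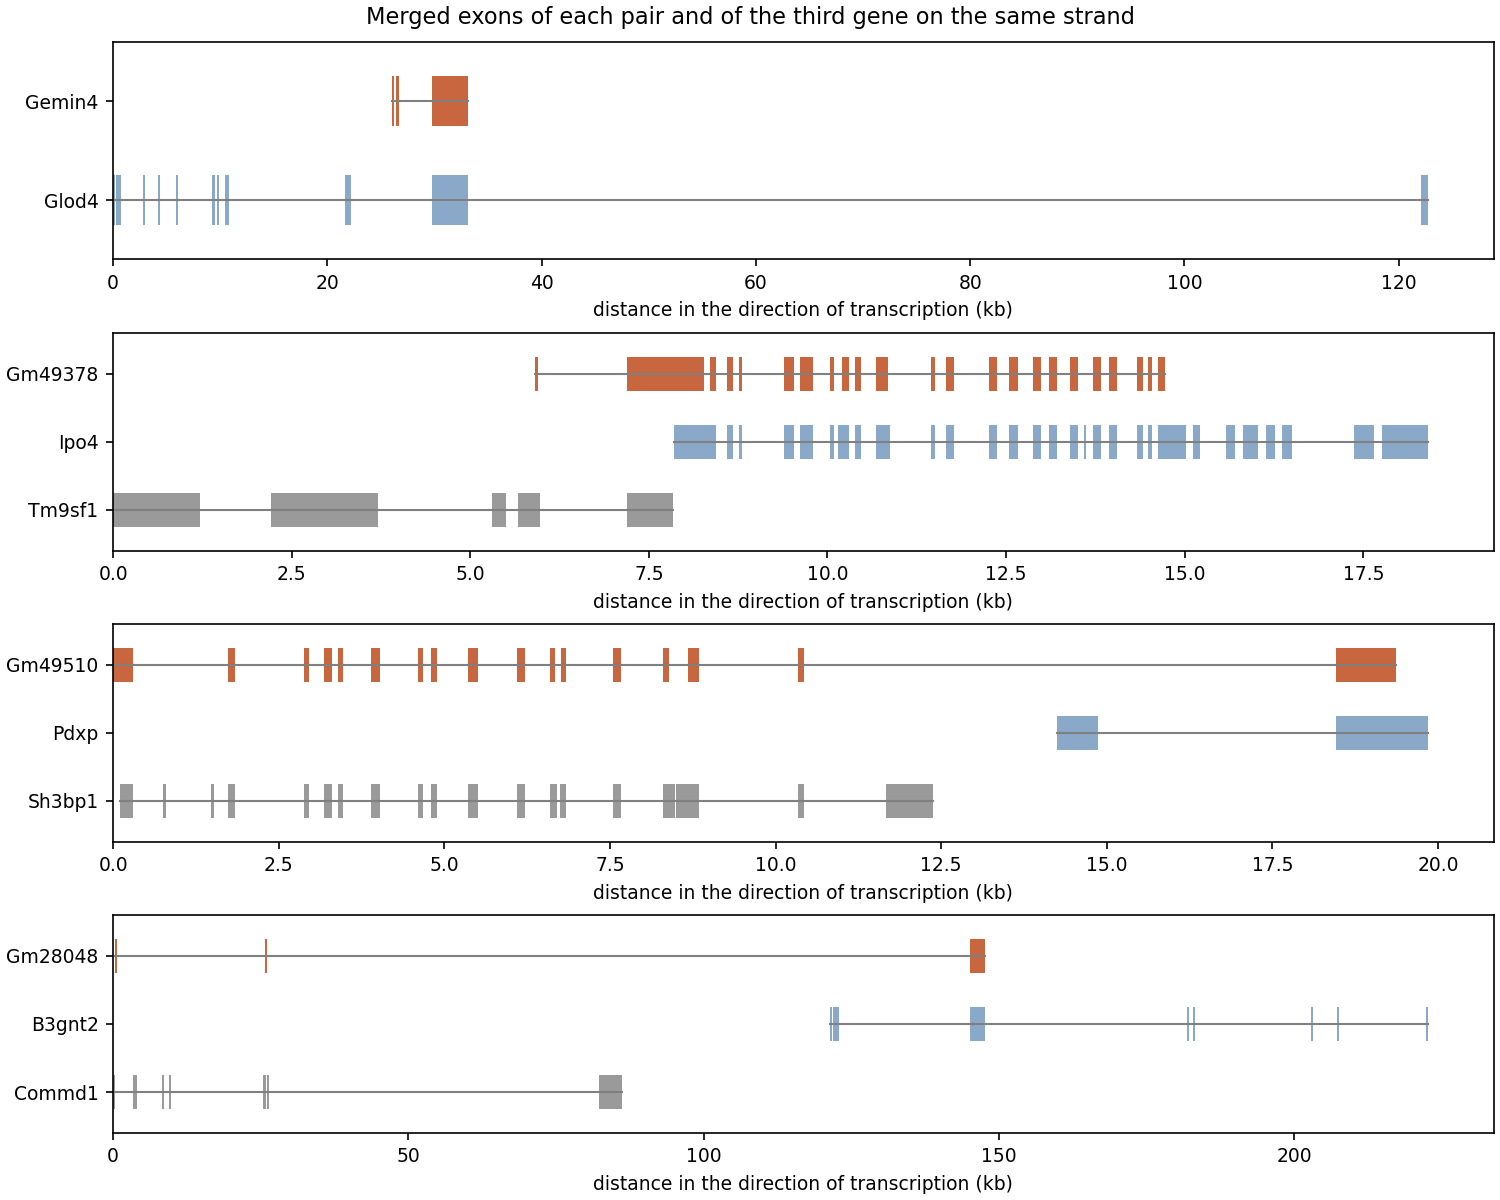
Merged annotated exons (boxes) of each pair and, for 3 pairs, of the third gene on the same strand, by distance in the direction of transcription in kb. The longest box of Gemin4 and of Gm28048 coincides with a box of the partner gene, and the boxes of Gm49510 overlap those of Sh3bp1 except for the last, which lies in Pdxp.

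Total counts per library ran from 60695388 to 74200532. Of 9 neuroblastoma markers, such as Hand2 and Stmn2, all were measured and 8 reached 10 CPM, and their summed level was 2108 to 2260.3 CPM in mimic, 2085 to 2338 CPM in inhibitor and 1983 to 2300.4 CPM in control libraries. Summed markers of fibroblasts (9.83 to 15.8, 9.94 to 14.9 and 10.4 to 15.8 CPM over 3 measured of 4), of glia (13.4 to 15.1, 11.7 to 16.6 and 12.7 to 15.7 CPM over 3 of 3) and of immune and endothelial cells (4.56 to 7.84, 5.26 to 8.58 and 5.50 to 8.66 CPM over 4 of 4), in the same order of groups, were low and overlapped between groups. edgeR's quasi-likelihood test called 0 of 13014 genes at a Benjamini-Hochberg adjusted p under 0.05 in each of the 3 comparisons, with 71 genes at an unadjusted p under 0.05 in mimic against control, 67 in inhibitor against control and 77 in mimic against inhibitor. These counts are far below 0.05 of the 13014 genes, the share that evenly spread p values would give without any change. The test was thus conservative here, and 0 calls do not show an absence of change. DESeq2 called 3, 1 and 6 genes in the same comparisons. The comparisons share their control or treated libraries and are not independent.

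Gemin4 was either at about 50 CPM or near 0, and each group held libraries of both kinds. It measured 53.0, 0.476, 55.3 and 0.369 CPM in mimic libraries 1 to 4, 55.9, 0.395, 50.8 and 0.245 CPM in inhibitor libraries 1 to 4, and 0.433, 61.1, 0 and 0.378 CPM in control libraries 1 to 4. A count of 0 in control 3 allows up to 0.0404 CPM, the level of 3 counts. Mimic 1 and 3, inhibitor 1 and 3 and control 2 were high, and the other 7 libraries were low. Glod4 measured 51.9, 105.7, 50.4 and 102.5 CPM in mimic libraries 1 to 4, 52.9, 109.7, 54.0 and 113.1 CPM in inhibitor libraries, and 102.2, 51.2, 110.7 and 109.4 CPM in control libraries. The 5 libraries with high Gemin4 were the 5 with low Glod4. Gemin4 averaged 27.3 ± 31.0 CPM in mimic, 26.8 ± 30.7 CPM in inhibitor and 15.5 ± 30.4 CPM in control libraries (SD, n = 4 each). Each SD was above its mean, and the group means stand at levels that none of the libraries had.

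The sum of Gemin4 and Glod4 varied far less than either gene. It was 104.9, 106.1, 105.7 and 102.9 CPM in mimic libraries, 108.8, 110.1, 104.8 and 113.3 CPM in inhibitor libraries, and 102.6, 112.3, 110.7 and 109.8 CPM in control libraries. The highest library was 1.10-fold the lowest, and of 11012 other genes whose mean reached 2 CPM, 99.0% had a wider range (median 1.44-fold). The share of the pair's counts given to Gemin4 was 48.5% to 54.4% in the 5 libraries and 0% to 0.449% in the other 7. Exact binomial 95% intervals, which cover counting error only, ran from 53.3% to 55.5% in control 2 and from 0.225% to 0.504% in control 4. Total counts were 63960649 to 73777298 in the 5 libraries and 60695388 to 74200532 in the others, so library size did not separate them.

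In mimic against control the log2 difference was 0.76 (SE 2.13) for Gemin4, -0.27 (SE 0.35) for Glod4 and -0.06 (95% interval -0.20 to 0.07) for their sum. In inhibitor against control the values were 0.76 (SE 2.13), -0.18 (SE 0.35) and 0.00 (95% interval -0.13 to 0.13). In mimic against inhibitor they were 0.00 (SE 2.11), -0.09 (SE 0.35) and -0.07 (95% interval -0.20 to 0.06). Control held 1 library with high Gemin4 and the mimic and inhibitor groups held 2 each, and the fitted difference of Gemin4 rested on that 1 library: without control 2 it was 6.67 in mimic against control and 6.66 in inhibitor against control. The mean of Gemin4 was 11.8 CPM higher in mimic than in control while that of Glod4 was 15.8 CPM lower, which left a difference of -3.96 CPM in the sum.

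**Figure D2:**
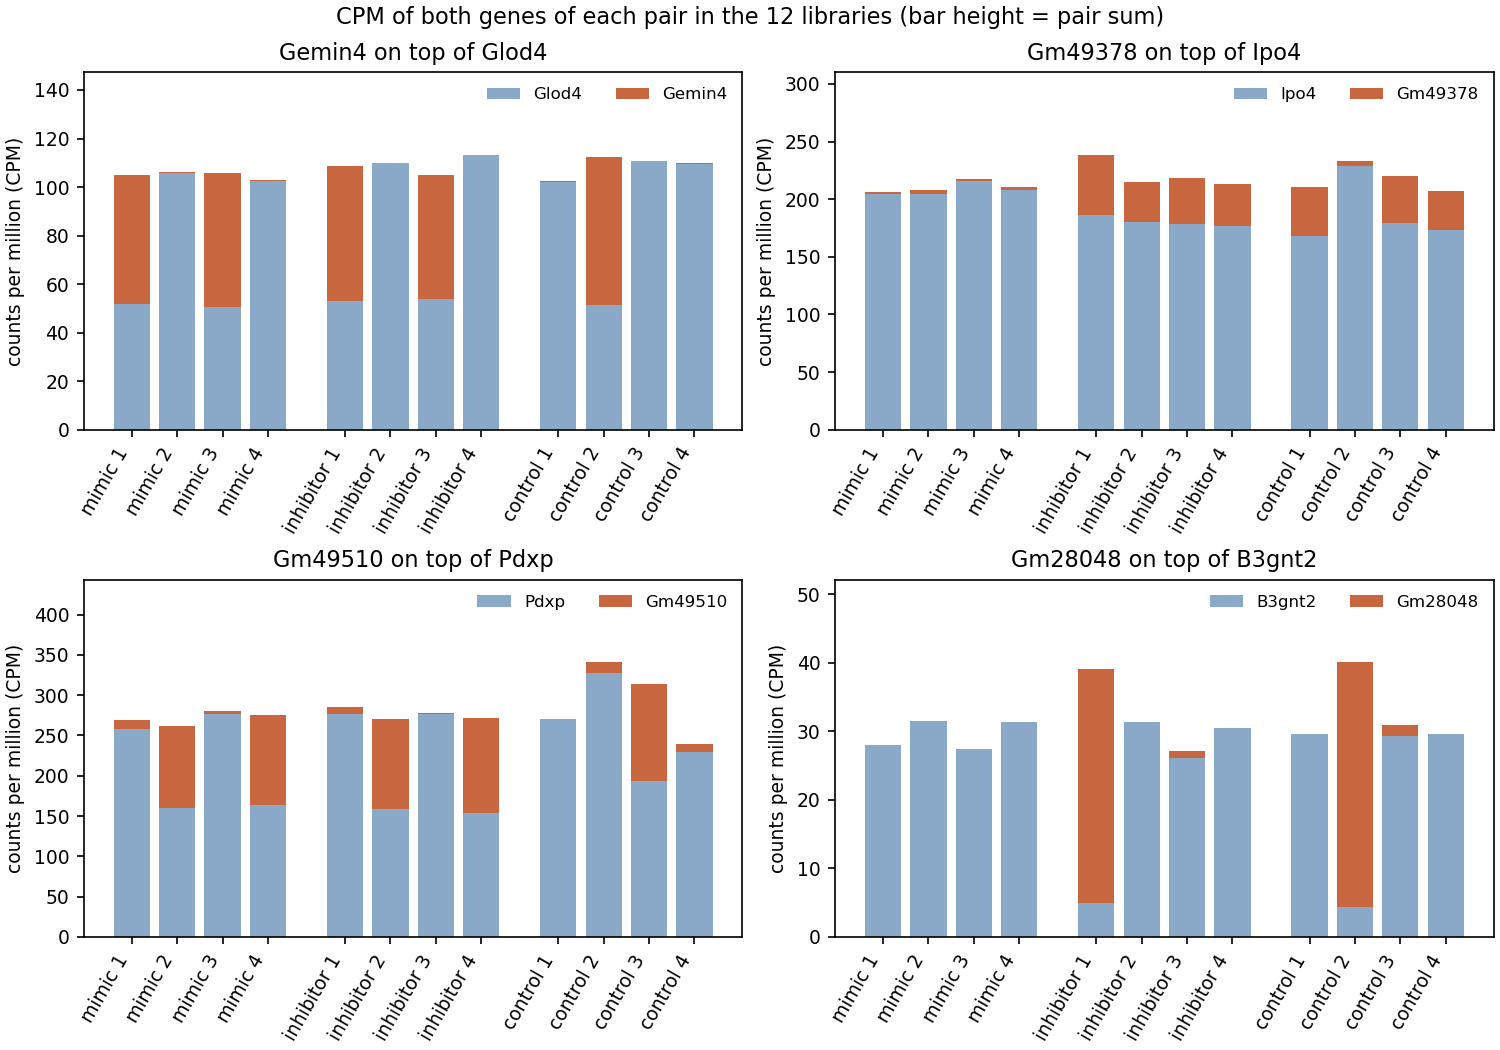
CPM of each pair by library, with the overlapping gene (orange) stacked on its partner (blue), so that the bar height is the pair's sum. The boundary between the colours moves from library to library, within groups as well as between them, while the Gemin4 and Glod4 bars stay between 102.6 and 113.3 CPM.

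Gm49378 was the member whose split followed the groups most closely. It measured 2.36, 2.91, 2.13 and 2.55 CPM in mimic libraries 1 to 4, 52.4, 34.0, 39.7 and 36.7 CPM in inhibitor libraries, and 41.9, 3.74, 40.6 and 34.2 CPM in control libraries. All mimic libraries and control 2 were low, and the lowest inhibitor library was at 34.0 CPM. The groups did not overlap in mimic against control, where Gm49378 was 1 of 8 members to be lower in every mimic library, a separation that 0.246% of all 13014 tested genes showed in that direction, and it came from the values that chose the gene. Ipo4 measured 204.2, 204.7, 215.4 and 207.7 CPM in mimic libraries, 186.2, 180.6, 178.4 and 176.9 CPM in inhibitor libraries, and 168.4, 229.1, 179.6 and 172.9 CPM in control libraries. The 5 libraries low in Gm49378 were the 5 highest in Ipo4, with control 2 at the top.

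The sum of Gm49378 and Ipo4 was 206.5, 207.6, 217.5 and 210.2 CPM in mimic libraries, 238.6, 214.5, 218.2 and 213.6 CPM in inhibitor libraries, and 210.3, 232.9, 220.1 and 207.1 CPM in control libraries. The groups overlapped, and the range was 1.16-fold, narrower than that of 95.3% of other genes. The share given to Gm49378 was 0.978% to 1.40% in mimic libraries and 1.61% in control 2, against 15.8% to 21.9% in the 4 inhibitor libraries and in controls 1, 3 and 4. Tm9sf1, whose exons Gm49378 also runs through, measured 65.2 to 73.7 CPM in mimic, 60.3 to 66.5 CPM in inhibitor and 57.9 to 77.6 CPM in control libraries, with its highest value in control 2.

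The groups that Gm49378 separated overlapped in the sum. Gm49378 averaged 24.4 CPM and Ipo4 192.0 CPM over the 12 libraries, so the sum is mostly Ipo4. Had Ipo4 not changed, the sum's mean would have been 27.6 CPM lower in mimic than in control libraries. Against inhibitor libraries it would have been 38.2 CPM lower. In mimic against control the log2 difference was -3.60 (SE 0.54) for Gm49378, 0.14 (SE 0.09) for Ipo4 and -0.06 (95% interval -0.20 to 0.08) for the sum. The mean of Gm49378 was 27.6 CPM lower in mimic than in control, that of Ipo4 was 20.5 CPM higher, and that of the sum differed by -7.13 CPM. In mimic against inhibitor the log2 differences were -4.04 (SE 0.55), 0.20 (SE 0.09) and -0.08 (95% interval -0.22 to 0.06). The means differed by -38.2, 27.4 and -10.8 CPM in the same order. There Gm49378 was lower in every mimic library, as were 0.415% of all genes, and Ipo4 was higher in every mimic library, as were 0.461%. Both come from the counts that chose the pair. In inhibitor against control the values were 0.44 (SE 0.48), -0.06 (SE 0.09) and 0.02 (95% interval -0.12 to 0.16), and none of the 8 members separated the groups, against 0.622% of all genes in either direction.

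The call of Gm49378 depended on the tool and on control 2. In edgeR its adjusted p was 0.257 in mimic against control and 0.0948 in mimic against inhibitor, the smallest in each comparison. Without control 2, edgeR called 1 gene, Gm49378, in both comparisons, with adjusted p of 7.44e-07 in mimic against control and 4.61e-07 in mimic against inhibitor. DESeq2 called it with all libraries, with adjusted p of 6.61e-07 and 4.28e-09 in those comparisons. These p values belong to a gene chosen from these counts and describe its row in the fit across all genes. Of the 4 pair sums, 0 were called under any alternative run. The main fit called 0% of all 13014 genes and the alternatives called few, so this count is not a result about the sums.

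**Figure D3:**
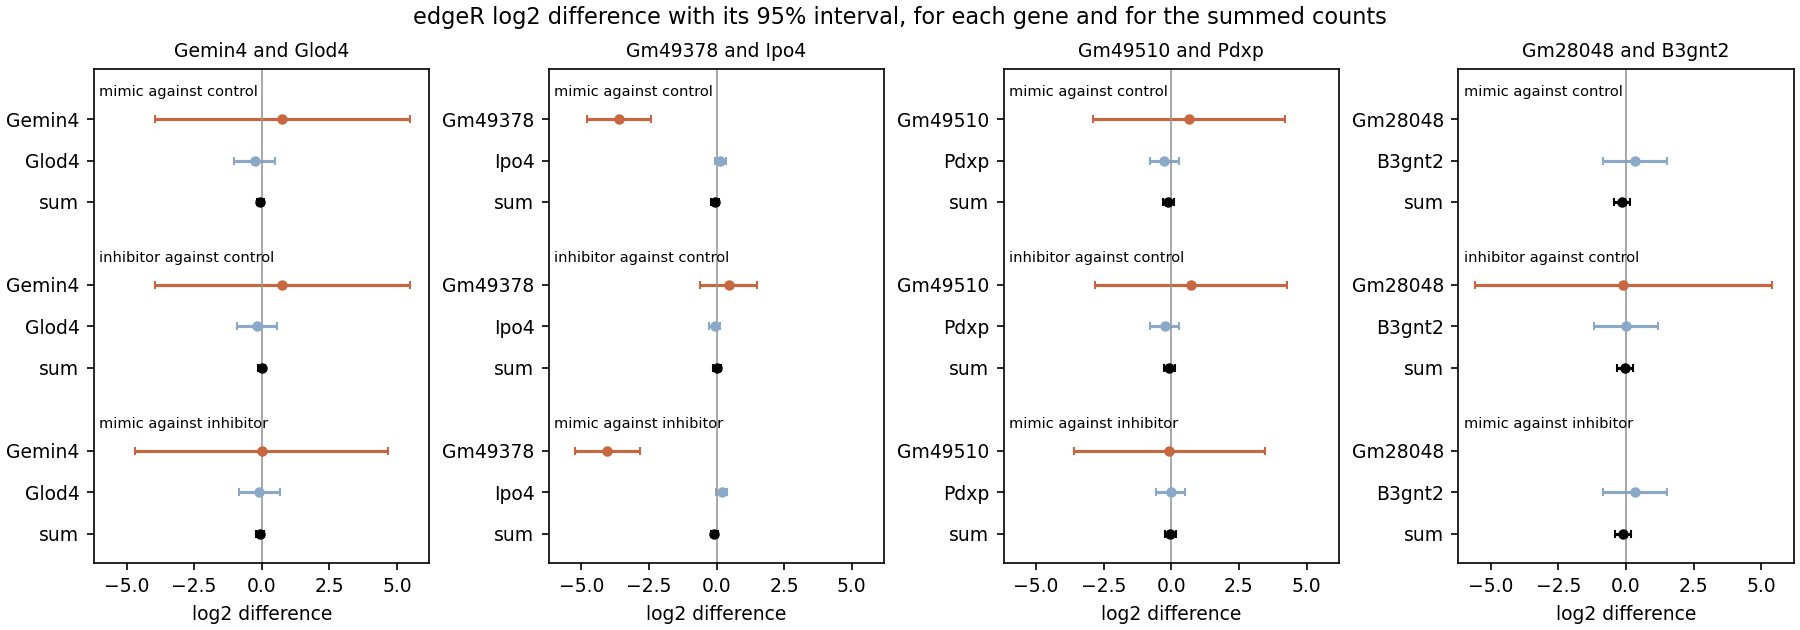
edgeR log2 differences (points) with 95% intervals (bars) for the overlapping gene (orange), its partner (blue) and their summed counts (black) in the 3 comparisons, 4 libraries per group. The sums lie between -0.15 and 0.02 with intervals across 0, while single genes reach -4.04. Gm28048 is left out where all mimic libraries are at 0 counts.

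Gm49510 was high and Pdxp low in 5 libraries spread over all groups. It measured 11.1, 102.2, 3.56 and 110.8 CPM in mimic libraries 1 to 4, 8.96, 111.6, 1.29 and 118.7 CPM in inhibitor libraries, and 0.185, 14.3, 121.4 and 9.14 CPM in control libraries. Mimic 2 and 4, inhibitor 2 and 4 and control 3 were high. Pdxp measured 258.6, 160.0, 276.2 and 164.1 CPM in mimic libraries, 276.2, 159.0, 276.3 and 153.5 CPM in inhibitor libraries, and 270.6, 326.9, 193.0 and 229.9 CPM in control libraries. It was at 153.5 to 193.0 CPM in the 5 libraries with high Gm49510 and at 229.9 to 326.9 CPM in the other 7. Among these 5 libraries none had high Gemin4, and all 5 libraries with high Gemin4 had low Gm49510.

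The sum of Gm49510 and Pdxp was 269.7, 262.3, 279.8 and 274.8 CPM in mimic libraries, 285.2, 270.6, 277.6 and 272.2 CPM in inhibitor libraries, and 270.7, 341.2, 314.4 and 239.0 CPM in control libraries. Mimic and inhibitor libraries lay within 262.3 to 285.2 CPM and controls spread on both sides of them. The range over 12 libraries was 1.43-fold, and 52.0% of other genes had a wider one, so this sum varied about as much as a typical gene. Sh3bp1 measured 18.3, 9.18, 21.3 and 12.9 CPM in mimic libraries, 19.4, 8.98, 21.4 and 13.0 CPM in inhibitor libraries, and 23.6, 16.3, 9.04 and 25.6 CPM in control libraries. The 5 libraries with high Gm49510 were the 5 lowest in Sh3bp1. With the third gene added, sums chosen after the values were seen, the range was 1.35-fold with Sh3bp1 here and 1.17-fold for Gm49378 and Ipo4 with Tm9sf1.

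The share given to Gm49510 was 38.6% to 43.6% in its 5 high libraries and 0.0685% to 4.18% in the other 7. In mimic against control the log2 difference was 0.67 (SE 1.60) for Gm49510, -0.27 (SE 0.25) for Pdxp and -0.11 (95% interval -0.32 to 0.09) for the sum. In inhibitor against control the values were 0.74 (SE 1.60), -0.24 (SE 0.25) and -0.08 (95% interval -0.28 to 0.13). In mimic against inhibitor they were -0.08 (SE 1.59), -0.02 (SE 0.25) and -0.03 (95% interval -0.24 to 0.17). The mean of Pdxp was 40.4 CPM lower in mimic than in control, that of Gm49510 was 20.7 CPM higher, and the sum differed by -19.7 CPM, so the Gm49510 difference was smaller than that of Pdxp. The spread of the control libraries, 291.3 ± 45.4 CPM for the sum (SD, n = 4), was larger than that difference.

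Gm28048 had counts in 4 of 12 libraries, and in 2 of them it exceeded B3gnt2. It measured 0 in all 4 mimic libraries, 34.1, 0, 1.06 and 0 CPM in inhibitor libraries, and 0, 35.7, 1.64 and 0 CPM in control libraries. B3gnt2 measured 28.0, 31.5, 27.4 and 31.4 CPM in mimic libraries, 5.03, 31.3, 26.1 and 30.6 CPM in inhibitor libraries, and 29.6, 4.41, 29.4 and 29.7 CPM in control libraries. Inhibitor 1 and control 2 were high in Gm28048 and low in B3gnt2, and in the other 10 libraries B3gnt2 stayed within 26.1 to 31.5 CPM. The share given to Gm28048 was 87.2% in inhibitor 1, 89.0% in control 2, 3.91% in inhibitor 3 and 5.30% in control 3. In the mimic libraries a count of 0 allows a share of up to 0.138% to 0.168%.

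The mean of Gm28048 was at least 197-fold lower in mimic than in inhibitor libraries and at least 209-fold lower than in control libraries, taking 3 counts per library as the floor. Both bounds rest on 1 library each, since without inhibitor 1 the inhibitor mean was 0.354 CPM, and without control 2 the control mean was 0.548 CPM. The sum of Gm28048 and B3gnt2 was 28.0, 31.5, 27.4 and 31.4 CPM in mimic libraries, 39.1, 31.3, 27.1 and 30.6 CPM in inhibitor libraries, and 29.6, 40.1, 31.0 and 29.7 CPM in control libraries. The sum was highest in inhibitor 1 and control 2, the libraries where Gm28048 was high. Its range was 1.48-fold, with 45.6% of other genes wider. Commd1 was at 97.1 CPM in inhibitor 1 and 100.7 CPM in control 2, within its range of 91.1 to 105.1 CPM over the 12 libraries, so it was not low where the sum was high. With Commd1 added, a sum chosen after the values were seen, the range was 1.17-fold, with 94.2% of other genes wider. Commd1 made up most of that sum.

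In mimic against control the log2 difference was 0.34 (SE 0.54) for B3gnt2 and -0.15 (95% interval -0.45 to 0.14) for the sum. In inhibitor against control it was 0.00 (SE 0.54) for B3gnt2 and -0.03 (95% interval -0.32 to 0.27) for the sum. In mimic against inhibitor it was 0.34 (SE 0.54) for B3gnt2 and -0.12 (95% interval -0.42 to 0.17) for the sum. Leaving out control 2 took the B3gnt2 difference in inhibitor against control to -0.34, and leaving out inhibitor 1 took it to 0.34.

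Control 2 stood on the unusual side of its group in 3 of the 4 pairs. It was the 1 control with high Gemin4, the 1 control with low Gm49378 and the 1 control with high Gm28048, and control 3 was the 1 control with high Gm49510. Mimic 1 and 3 were alike in all 4 splits, as were mimic 2 and 4, inhibitor 2 and 4, and controls 1 and 4. Same-numbered mimic and inhibitor libraries were on the same side in the splits of Gemin4 and of Gm49510 for all 4 numbers, and the control libraries did not follow these numbers. Total counts of control 2 and control 3 were 67950816 and 74200532. What sets the split was not tested, and from gene counts a change in the transcripts made cannot be told apart from a change in how reads were assigned.

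Sums of deposited TPM (counts scaled by gene length and by library) did not behave as sums of counts. The TPM of the sum of Gm49378 and Ipo4 was 82.9 to 83.9 in mimic libraries, 132.7 to 165.9 in inhibitor libraries and 89.5 to 145.1 in control libraries. The mimic libraries lay below all others, although their summed counts overlapped with those of both groups. For every gene of the pairs the TPM equalled the counts divided by 1 fixed length per gene, and that length matched the added lengths of all its annotated transcripts, 16742 bases for Ipo4, whose merged exons span 4669 bases, and 3275 bases for Gm49378. A count that moves from Ipo4 to Gm49378 thus weighs more in TPM than it did before. The range over libraries was 2.00-fold in summed TPM and 1.16-fold in summed CPM for this pair, 2.20-fold and 1.10-fold for Gemin4 and Glod4, and 3.47-fold and 1.48-fold for Gm28048 and B3gnt2. For Gm49510 and Pdxp, whose lengths are 2762 and 2001 bases, it was 1.37-fold in summed TPM and 1.43-fold in summed CPM.

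**Figure D4:**
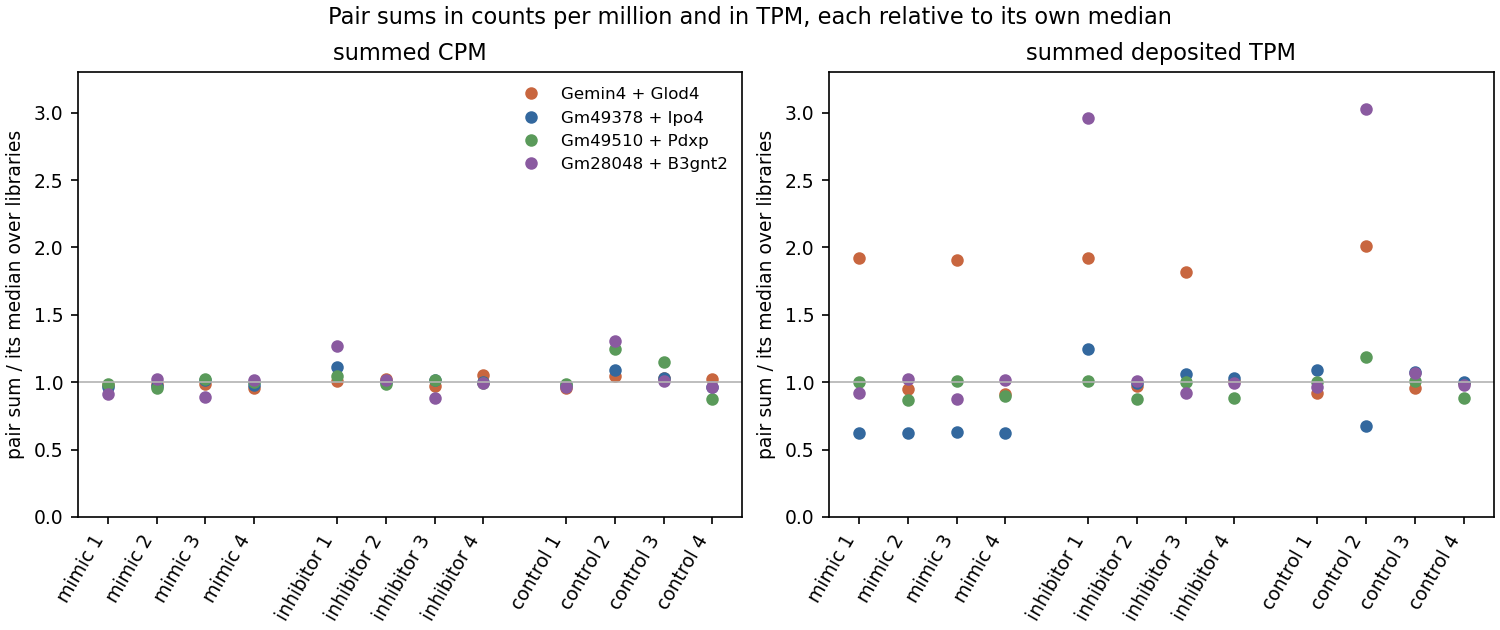
Pair sums in each library divided by the pair's median over the 12 libraries, in CPM (left) and in deposited TPM (right). In TPM the sum of Gemin4 and Glod4 spans 2.20-fold and that of Gm28048 and B3gnt2 3.47-fold, against 1.10-fold and 1.48-fold in CPM.

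Other overlapping pairs also split their counts unevenly between libraries. In the annotation, 708 pairs of measured genes shared at least 100 exon bases on the same strand, and in 184 of them both genes averaged at least 1 CPM. Over the 12 libraries, with 0.5 counts added, the log2 ratio of a pair spanned 15.1 for Gm28048 and B3gnt2, 14.3 for Gemin4 and Glod4, 10.1 for Gm49510 and Pdxp and 4.83 for Gm49378 and Ipo4. These were the 4th, 6th, 25th and 45th widest of the 184, and values of pairs with a library at 0 counts depend on the amount added. The other 180 pairs had a median span of 1.62 in the log2 ratio and of 0.50 in the log2 sum. Of these, 59 spanned more than 3 in the ratio, and 31 of the 59 spanned less than 0.6 in the sum, limits chosen with the values in view. These pairs are not separate events, since some genes stand in several of them: the 59 involve 92 gene symbols and the 31 involve 56. Some symbols, such as Timm10b, stand for more than 1 gene, so the numbers of genes are higher. Of the 59, 3 join a member to the other gene that it runs through, Gm28048 with Commd1, Gm49510 with Sh3bp1 and Gm49378 with Tm9sf1, and the first of these is among the 31. The sums of the 4 pairs spanned 0.56, 0.14, 0.51 and 0.21 in the same order.

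**Figure D5:**
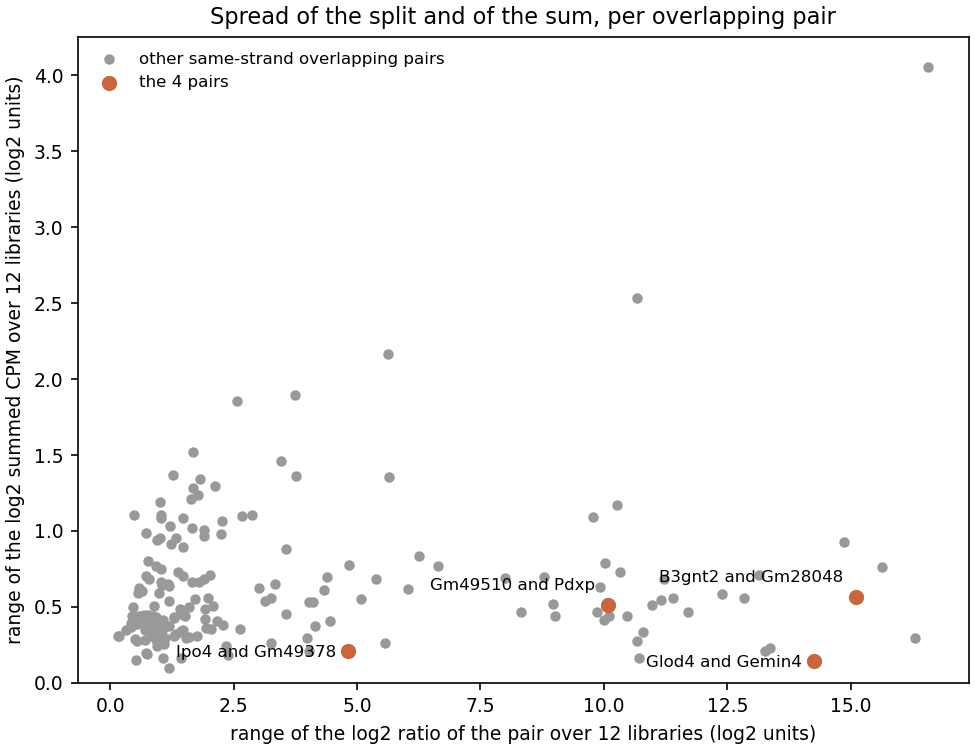
Range over 12 libraries of the log2 ratio of each pair (x axis) against the range of its log2 summed CPM (y axis), in log2 units, for 184 same-strand overlapping pairs. The 4 pairs (orange) lie at 4.83 to 15.1 on the x axis and 0.14 to 0.56 on the y axis, and 59 other pairs lie beyond 3 on the x axis.

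No gene of the members' wider pathways passed the test. In mimic against control, edgeR called 0 of 8 SMN complex genes, 0 of 3 tested glyoxalase genes, 0 of 10 importins, 0 of 10 genes of vitamin B6 and cofilin phosphorylation and 0 of 10 tested genes of poly-N-acetyllactosamine synthesis in either direction, as it called 0% of all genes. Their median log2 differences were 0.01, -0.01, 0.02, -0.01 and -0.03, with -0.01 over all genes. In inhibitor against control and in mimic against inhibitor 0 genes of these lists were called as well. Since the test was conservative in these data, these calls of 0 do not show that the genes were unchanged.

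Among the SMN complex genes, Gemin7 averaged 11.7 ± 1.23 CPM in mimic and 13.3 ± 1.72 CPM in control libraries (SD, n = 4 each), a log2 difference of -0.19 (SE 0.11). Gemin6, which binds Gemin7 in the complex, averaged 18.2 ± 0.65 CPM in mimic and 16.2 ± 2.57 CPM in control libraries, a difference of 0.16 (SE 0.11). Hagh and Glo1, the enzymes of the glyoxalase pathway that clears methylglyoxal, differed by -0.06 (SE 0.09) and -0.01 (SE 0.07). Among the importins, Kpnb1, the importin beta of the classical pathway, differed by 0.09 (SE 0.08) and Ipo9 by 0.07 (SE 0.07). None of these passed the test.

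Lhpp, a phosphatase related to Pdxp, averaged 2.62 ± 0.533 CPM in mimic and 2.18 ± 0.365 CPM in control libraries, a log2 difference of 0.26 (SE 0.19). Ssh2, a slingshot phosphatase that acts on cofilin, differed by 0.13 (SE 0.12). B3gnt7, a relative of B3gnt2, was at or below 0.321 CPM in every library and differed by 0.82 (SE 1.06), and B3gnt3 differed by -0.14 (SE 0.34). Of the genes named from these lists, B3gnt7 had the lowest level and the largest SE.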

How the data were processed

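RNA from 12 Neuro-2a libraries, 4 per group by the treatment in the labels, was sequenced. The authors deposited whole-number read counts and TPM for 15767 genes. The tools named by the submitters' processing notes are edgeR, StringTie, featureCounts, STAR and fastp, and the build is GRCm39. The annotation release, the strandedness and the handling of reads in shared exons were not given in the sources used here. In 10838 genes with at least 100 counts in every library, deposited TPM was the count times 1 factor per library over 1 length per gene, to within 1.00073-fold, so TPM is not an independent measure. That length was within 1% of the added lengths of all annotated transcripts in 97.0% of 10016 genes with more than 1 transcript.

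Members, pairs, gene lists and alternatives were chosen with earlier results of these data known. The symbols of 5 members came from the deposited TPM table and those of 3, blank there, from a name table by gene ID. Annotation and junction sequences are from GENCODE M21 on GRCm38, which is not the authors' build, and 15738 gene IDs matched. CPM uses total counts (60695388 to 74200532 per library). A floor of 3 counts and exact binomial (Clopper-Pearson) intervals cover counting error only. edgeR 4.0.16 in R 4.3.3 (TMM, filterByExpr, robust quasi-likelihood fit of group on all 12 libraries, two-sided, Benjamini-Hochberg adjusted p under 0.05) gave the differences, and the pair sums were fitted in the same way in a table where each pair was replaced by its summed counts. DESeq2 1.42.0 and limma 3.58.1 on log2(TPM + 0.1) and log2(TPM + 1) were alternatives. A further marker is not reported here. Same-numbered mimic and inhibitor libraries deviated together for numbers 2 to 4 (correlations of 0.40, 0.55 and 0.78) and little for number 1 (0.14). Of these libraries, 6 of 8 correlated best with their own number. All 8 members were named, with measured genes that overlap them, the 2 genes with the largest absolute correlation with each pair's ratio (mean of at least 2 CPM) and up to 2 genes of each list with the greatest difference in mimic against control.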

Additional observations from a re-analysis of the deposited data

Results flagged for a closer look

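In each group of 4, the gap between the highest or lowest library and its nearest neighbour was set against the group's range by Dixon's test at its 95% critical value. Of 35 groups examined, 7 passed it. Chance passes about 1 in 20 groups, but these genes were chosen because their counts jump between libraries, so the passes follow from the choice and are given as a description. Gemin4 was at 61.1 CPM in control 2, against 0 to 0.433 CPM in the other controls. Glod4 was at 51.2 CPM in control 2, against 102.2 to 110.7 CPM. Gm49510 was at 121.4 CPM in control 3, against 0.185 to 14.3 CPM. Gm28048 was at 34.1 CPM in inhibitor 1, against 0 to 1.06 CPM in the other inhibitor libraries, and at 35.7 CPM in control 2, against 0 to 1.64 CPM in the other controls. B3gnt2 was at 4.41 CPM in control 2, against 29.4 to 29.7 CPM. The sum of Gm28048 and B3gnt2 was at 40.1 CPM in control 2, against 29.6 to 31.0 CPM. Of the 7, 5 were in control 2. The members of a pair share their counts, so these are fewer than 7 separate events.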

How the results depend on the processing

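Of 240 alternative values for the log2 differences of the pair sums, 226 moved by less than the spread between libraries and 14 by more. All 14 came from limma on TPM, for the reason of construction given above that TPM weights the genes of a pair unequally. With log2(TPM + 0.1) and log2(TPM + 1), the sum of Gemin4 and Glod4 differed by 0.21 and 0.21 in mimic against control and by 0.24 and 0.24 in inhibitor against control. The sum of Gm49378 and Ipo4 differed by -0.59 and -0.58 in mimic against control, by 0.20 and 0.20 in inhibitor against control and by -0.79 and -0.78 in mimic against inhibitor. The sum of Gm28048 and B3gnt2 differed by -0.46 and -0.45 in mimic against control and by -0.42 and -0.41 in mimic against inhibitor. DESeq2 called 3 genes in mimic against control, 1 in inhibitor against control and 6 in mimic against inhibitor. Leaving out 1 library at a time, edgeR called 0 to 1 genes in mimic against control and 0 to 1 in mimic against inhibitor, the 1 gene in each being Gm49378 without control 2. In the comparisons with control, same-numbered libraries deviated together for some numbers only, most for number 4. The main fit of group alone left such shared deviations in the spread within groups. Deviations of same-numbered libraries correlated at 0.35, -0.15, 0.44 and 0.73 between mimic and control (numbers 1 to 4). Between inhibitor and control they correlated at -0.01, -0.15, 0.32 and 0.81. In these comparisons, 5 of 8 and 2 of 8 libraries correlated best with their own number. With the replicate block, 0 genes were called in each comparison (191, 161 and 139 at an unadjusted p under 0.05). Alternatives chosen after seeing the data, the third gene added to the sum and libraries 1 to 3 alone, moved no sum beyond that spread and called 0 genes. Counts of 0 in control 3 and the mimic libraries limit folds to bounds.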

Other observations

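Of the overlapping pairs outside the 4, 3 are described here. They were chosen after their values were seen, as those with the greatest excess of the ratio's span over the sum's. Gm38431 measured 44.3 to 66.7 CPM in mimic libraries, 55.3, 176.9, 50.1 and 169.0 CPM in inhibitor libraries 1 to 4 and 48.0, 69.7, 179.0 and 165.9 CPM in control libraries 1 to 4. Raver1, a gene of an RNA-binding protein that overlaps it, measured 114.8 to 134.0 CPM in mimic libraries, 135.8, 0.0165, 121.7 and 0.445 CPM in inhibitor libraries and 126.2, 133.0, 0 and 0.0291 CPM in control libraries. Their sum was 165.6 to 188.0 CPM in mimic, 169.4 to 191.1 CPM in inhibitor and 166.0 to 202.7 CPM in control libraries. Raver1 was thus near 0 in inhibitor 2 and 4 and in controls 3 and 4, while the sum stayed level. The other pairs were Gm49388 with Hsd3b7 and Gm20716 with Dpm1, whose sums ran from 7.16 to 12.2 CPM and from 29.9 to 56.8 CPM. Both sums were lower where the first gene was at 0. With Gm49388 at 0, in mimic 2 and 4 and inhibitor 1 and 2, the sum was 7.16 to 8.065 CPM. Elsewhere it was 9.76 to 12.2 CPM. With Gm20716 at 0, in mimic 4, inhibitor 3 and 4 and control 4, the sum was 29.9 to 35.6 CPM. Elsewhere it was 41.8 to 56.8 CPM.

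For each pair, the 2 other genes whose log2 CPM had the largest absolute Pearson's r with the pair's log2 ratio over 12 libraries were taken, as a description only. In each pair 1 ran with the ratio and 1 against it. They were Ap2b1 (r = 0.948) and Camta1 (r = -0.884) for Gemin4 over Glod4, Cox7c (r = -0.906) and Arf4 (r = 0.816) for Gm49378 over Ipo4, Ppp1r9b (r = 0.874) and Sh3bp1 (r = -0.852) for Gm49510 over Pdxp, and Dop1a (r = -0.949) and Mvb12a (r = 0.944) for Gm28048 over B3gnt2. Each ratio falls into separate clusters of libraries, so r reflects the clusters, and 11012 genes were searched, so no p is given. The levels of Ap2b1 ran only from 297.5 to 312.6 CPM over the libraries.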
